A study of Mus musculus with 28 samples.

Results

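Dendritic cells lacking both the type I interferon receptor and RelB were compared with cells lacking the receptor alone after stimulation. The genotypes are labelled IFNAR;RelBko and IFNAR and are called the double knockout and the IFNAR knockout here. The comparison holds 12 of the 28 libraries of the series, as 6 pairs in which a double-knockout and an IFNAR-knockout library share the stimulus and the time. The stimuli were CpG, a DNA ligand of Toll-like receptor 9, and Poly(I:C), which mimics viral double-stranded RNA, and cells were collected at 1, 3 and 8 h. The cells were mouse bone marrow cultures on a C57BL/6 background, grown with GM-CSF and IL-4, a culture that yields dendritic cells together with macrophage-like cells. Every genotype, stimulus and time has 1 library, so the 6 pairs, which differ in stimulus and time, stand in for replicates of the genotype difference. P-values below therefore measure how steady that difference was over the conditions. Whether libraries of a genotype came from the same mouse or culture was not stated. A difference between mice or cultures thus cannot be told apart from a genotype difference. The series also holds wild-type (WT) and RelBko libraries at the same 6 conditions and 1 control library per genotype labelled 1 h. CpG was given at 0.1 µM. Sample titles give Poly(I:C) at 10 ng/mL and the treatment protocol gives 10 µg/mL. The labels do not describe the mutant alleles.

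RelB is a subunit of the alternative NF-kB pathway. Receptors such as CD40 and the lymphotoxin beta receptor stabilise the kinase NIK, which leads to processing of the p100 protein encoded by Nfkb2 into p52, the usual partner of RelB in the nucleus. In dendritic cells RelB is known for its role in maturation. IFNAR is the receptor through which secreted type I interferons switch on interferon-stimulated genes, so in its absence that feedback is missing from both genotypes compared here. Interferon gamma, made mainly by T and NK cells, uses a different receptor and induces an overlapping set of genes.

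Library depth in the 12 libraries ran from 3269933 reads (IFNAR knockout, CpG 8 h) to 10032254 reads (double knockout, Poly(I:C) 3 h), so 1 read was worth between 0.0997 and 0.306 CPM, the depth-scaled read count of a gene. All values below are CPM, and differences are on the log2(CPM + 1) scale, double knockout minus IFNAR knockout. The standard error (SE) is the moderated one of limma for the 6 pairs, which draws each gene's spread towards that of other genes. For changes between times or between backgrounds, the SE comes from the fit of that test. The genotypes differed in sex-linked transcripts. Xist, expressed from the inactive X chromosome of females, was 0 to 0.589 CPM in the 6 IFNAR-knockout libraries and 712.9 to 1042 CPM in the 6 double-knockout libraries. The sum of 4 Y-linked genes was 221.4 to 263.2 CPM in the former and 0 to 0.3285 CPM in the latter. Sex and RelB genotype therefore cannot be told apart in these pairs. The 1107 genes of chromosomes X and Y were left out. Dendritic cell markers were present in both genotypes, with a summed level of 13320 to 15071 CPM in the IFNAR knockout and 9502 to 11514 CPM in cells lacking both. That list includes the MHC class II genes Cd74, H2-Aa and H2-Ab1, which are counted again under class II below. In such bulk samples, fewer cells of a type and less RNA per cell cannot be told apart.

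Of 12179 autosomal or unplaced genes tested over the 6 pairs, 6571 (54.0%) passed an adjusted p of 0.05 in limma with Benjamini-Hochberg adjustment. The level was higher in the double knockout for 4373 genes (35.9%) and lower for 2198 (18.0%). Counts of list members called below are to be read beside these shares. With TMM scaling the split was 2762 higher and 2863 lower, with median-ratio scaling 2699 and 2917, and with quantile normalisation 3267 and 2463. The median difference of all tested genes was 0.11. A difference of at least 2-fold was found for 272 of the genes called higher and 443 of those called lower. Of all tested genes, 31.3% were higher and 15.4% lower in 6 of 6 pairs, before any test. The genotype groups of 6 libraries did not overlap at all for 895 genes higher (7.35%) and 676 genes lower (5.55%) in the double knockout.

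The targeted genes were read first. Relb was 141, 221 and 273 CPM at 1, 3 and 8 h of CpG in the IFNAR knockout, and 148, 178 and 199 CPM after Poly(I:C). In the double knockout it was 96.4, 188 and 209 CPM after CpG and 98.9, 109 and 131 CPM after Poly(I:C). Relb was lower in the double knockout in all 6 pairs but its transcript remained abundant there, and the ranges overlapped. The difference was -0.50 ± 0.06 (SE, n = 6 pairs; limma adjusted p = 5e-06). RelBko cells with an intact receptor held 69.2 to 156 CPM of Relb against 98.8 to 187 CPM in WT. Ifnar1, a chain of the interferon receptor, was 52 to 92.9 CPM in the IFNAR knockout, 58.1 to 104 CPM in the double knockout and 109 to 148 CPM in WT. Which exons the alleles remove was not given, so these transcript levels do not check the loss of either protein.

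Among the other alternative NF-kB genes, the pathway's kinase stood apart in direction from its transcription factor subunits. Of 13 members tested, 3 rose and 5 fell, and the median difference was 0.01 beside 0.11 for all genes. Map3k14, which encodes NIK, was 238, 73.5 and 181 CPM at 1, 3 and 8 h of CpG in the IFNAR knockout and 495, 212 and 377 CPM in the double knockout. After Poly(I:C) it was 240, 262 and 268 CPM against 471, 464 and 463 CPM. Map3k14 was higher in each pair, by the largest ratio at 3 h of CpG, with a difference of 1.03 ± 0.08 (n = 6; limma adjusted p = 5.5e-06). Nfkb2 was 391, 550 and 609 CPM after CpG and 379, 413 and 461 CPM after Poly(I:C) in the IFNAR knockout. The double knockout held 236, 489 and 404 CPM and 226, 256 and 281 CPM. Nfkb2 was lower in every pair (-0.60 ± 0.07; limma adjusted p = 2.4e-05), least so at 3 h of CpG. Traf2, an adaptor that helps degrade NIK in resting cells, fell by 0.48, and its 2 ranges, 55.3 to 72.5 and 38 to 52.4 CPM, did not overlap. Chuk, which encodes the kinase acting on p100, and the receptor gene Ltbr were not called.

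**Figure D1:**
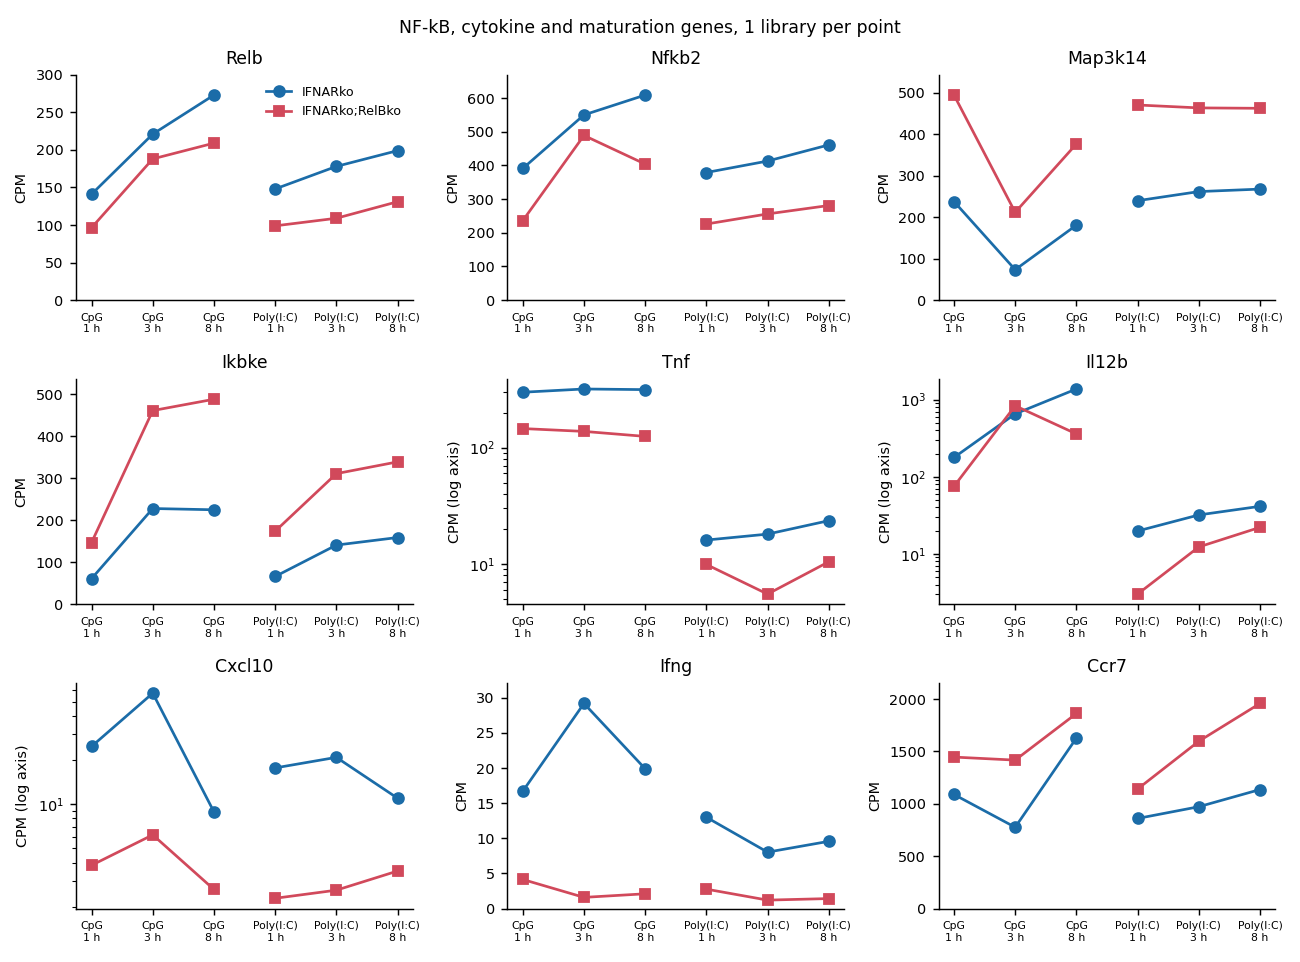
CPM of 9 genes (vertical axis, logarithmic for Tnf, Il12b and Cxcl10) in each library against stimulus and time, with circles for the IFNAR knockout and squares for the double knockout. Map3k14, Ikbke and Ccr7 were higher and Relb, Nfkb2, Tnf, Cxcl10 and Ifng lower in the double knockout in all 6 pairs, while the Il12b lines crossed at 3 h of CpG.

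Of 16 tested canonical NF-kB and IkB feedback genes, 8 fell and 2 rose, with a median of -0.20. Ikbke, which encodes an IkB kinase family member that acts on interferon regulatory factors, was the larger of the rises. It was 61.1, 228 and 225 CPM after CpG and 66.3, 141 and 159 CPM after Poly(I:C) in the IFNAR knockout, against 147, 461 and 488 CPM and 174, 311 and 339 CPM in the double knockout. Each double-knockout value was more than its partner, and the difference was 1.16 ± 0.05 (limma adjusted p = 2.8e-10). The falls were small. Nfkbie, an NF-kB inhibitor, fell by 0.59, Tnfaip3, which encodes the feedback enzyme A20, by 0.38, and Rel, the c-Rel subunit, by 0.29.

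Inflammatory cytokine genes were mixed, with 11 of 24 lower and 4 higher and a median of -0.35. Tnf, which encodes tumour necrosis factor, was 300, 320 and 316 CPM after CpG in the IFNAR knockout and 146, 138 and 125 CPM in the double knockout. After Poly(I:C) it was 16, 18 and 23.5 CPM against 9.86, 5.48 and 10.4 CPM. The stimulus set the level, and within each stimulus the genotypes did not overlap. The difference was -1.15 ± 0.09 (limma adjusted p = 1.4e-06). Il12b, the p40 subunit of IL-12 and IL-23, was 178, 655 and 1377 CPM after CpG and 19.8, 32 and 41.4 CPM after Poly(I:C) in the IFNAR knockout. The double knockout held 75.2, 834 and 360 CPM and 3.01, 12.3 and 22.1 CPM. Il12b was lower in 5 pairs and higher at 3 h of CpG. Its difference of -1.23 ± 0.38 passed narrowly (limma adjusted p = 0.039) and missed the threshold in 7 of 17 alternatives, where adjusted p reached 0.12. Il6 was 14.3 to 216 CPM against 12 to 100 CPM and was not called (-0.36 ± 0.22; limma adjusted p = 0.21), though it passed without the Poly(I:C) 8 h pair, the lowest adjusted p over 17 alternatives being 0.037 and the highest 0.38.

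Ltb, which encodes lymphotoxin beta, a ligand of the alternative pathway, was 22.8 to 48 CPM in the IFNAR knockout and 4.93 to 11.5 CPM in the double knockout, without overlap (-1.98 ± 0.08). Csf2, the gene of GM-CSF, fell by 1.85. WT cells held 5.75 to 11.7 CPM of Ltb and RelBko cells 7.04 to 8.94 CPM, so the IFNAR knockout held the high value among the 4 genotypes. The cytokine genes that rose were Tnfsf15, Il18, Ebi3 and Lta, by 0.94, 0.74, 0.61 and 0.57. The interferon beta gene Ifnb1 was below the filter on low values, at 0.236 to 1.83 CPM in the IFNAR knockout and 0 to 0.12 CPM in the double knockout.

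The chemokine and chemokine receptor list summed to 13715 to 31059 CPM in the IFNAR knockout and 16589 to 33375 CPM in the double knockout. That sum was higher in the double knockout in each pair. Of the 22 tested genes of the list, 10 fell and 6 rose, and the median of -0.26 ran opposite to the sum. Those that fell most were the ligands of CXCR3, a chemokine receptor of T cells. Cxcl10 was 24.8, 57.3 and 8.87 CPM after CpG and 17.7, 20.9 and 11 CPM after Poly(I:C) in the IFNAR knockout, against 3.83, 6.18 and 2.62 CPM and 2.28, 2.59 and 3.5 CPM. Every IFNAR-knockout library was above every double-knockout library, and the difference was -2.24 ± 0.21 (limma adjusted p = 8.8e-06). Cxcl9 was 25.3 to 60.2 CPM against 2.09 to 6.82 CPM (-3.00 ± 0.10). The macrophage chemokine genes Ccl4 and Ccl3 fell by 1.55 and 0.85, and Ccl24, an eosinophil attractant, by 1.85. Ccl5, which attracts T cells and monocytes, was 431 to 1648 CPM against 984 to 2669 CPM and rose by 1.11 ± 0.07. The neutrophil attractants Ppbp, Cxcl3, Cxcl5 and Cxcl1 rose by 1.39, 1.23, 0.76 and 0.52.

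Genes of the guanylate-binding proteins (GBP) and immunity-related GTPases (IRG), which defend the cell interior and are classic interferon gamma targets, were lower as a group. All 15 tested members fell, with a median of -1.44. Their summed level was 2864 to 3896 CPM in the IFNAR knockout and 796.8 to 1197 CPM in the double knockout. WT cells spanned 1144 to 2983 CPM and RelBko cells 1161 to 2928 CPM. Gbp2 was 1439, 1846 and 2544 CPM after CpG and 1420, 1522 and 1790 CPM after Poly(I:C) in the IFNAR knockout, against 391, 449 and 843 CPM and 381, 387 and 527 CPM. The groups did not overlap, and the difference was -1.86 ± 0.05 (limma adjusted p = 1.8e-11). Gbp5 was 15.1 to 51.9 CPM against 1.59 to 8.54 CPM (-2.61 ± 0.13). Iigp1, an IRG, fell from a median of 187 to 10.9 CPM.

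The promoters of 3 of these interferon-responsive genes are shown because the genes fell without overlap and carry words bound by interferon or NF-kB factors. The words searched on both strands were the core of the interferon-stimulated response element, which is GAAA repeated after any pair of bases, the gamma-activated site TTCNNNGAA and the kB consensus by name. The windows of 300 bases are from RefSeq, build GRCm38.p6, written 5′ to 3′ along the gene, with every match in capitals. Matches of the kB consensus overlap one another in the Cxcl10 window.
Gbp5 (chr3:142496684-142496983, plus strand): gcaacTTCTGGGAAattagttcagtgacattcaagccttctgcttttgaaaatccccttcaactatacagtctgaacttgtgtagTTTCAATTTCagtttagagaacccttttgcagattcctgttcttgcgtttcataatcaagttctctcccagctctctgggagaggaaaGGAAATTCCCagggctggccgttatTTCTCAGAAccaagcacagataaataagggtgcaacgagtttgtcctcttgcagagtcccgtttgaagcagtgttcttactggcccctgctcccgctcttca
Gbp2 (chr3:142620413-142620712, plus strand): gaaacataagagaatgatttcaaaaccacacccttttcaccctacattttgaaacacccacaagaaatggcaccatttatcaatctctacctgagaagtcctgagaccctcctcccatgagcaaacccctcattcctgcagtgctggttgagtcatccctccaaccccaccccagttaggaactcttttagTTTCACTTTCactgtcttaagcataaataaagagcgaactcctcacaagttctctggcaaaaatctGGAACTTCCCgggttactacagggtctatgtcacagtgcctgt
Cxcl10 (chr5:92348840-92349139, minus strand): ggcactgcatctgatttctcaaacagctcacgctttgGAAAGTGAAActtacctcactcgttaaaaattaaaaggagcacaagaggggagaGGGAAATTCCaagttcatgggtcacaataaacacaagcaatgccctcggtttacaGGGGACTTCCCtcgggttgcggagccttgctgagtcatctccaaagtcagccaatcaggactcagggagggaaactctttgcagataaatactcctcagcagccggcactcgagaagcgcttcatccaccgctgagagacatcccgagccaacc
The Gbp5 window holds 1 response element core, 2 gamma-activated site words and 1 kB match, the Gbp2 window 1 core and 1 kB match, and the Cxcl10 window 1 core and 3 kB matches. Among the tested GBP and IRG genes, 10 have a RefSeq window and all 10 hold the core word, beside 3.91% of the 9020 tested genes with a window. The gamma-activated site word was found in 7 of the 10, beside 8.54% of tested genes. Of 46 tested interferon-stimulated genes with a window, 20 hold the core word. The kB consensus was found in 2 of the 10 GBP and IRG genes, beside 12.5% of tested genes. The kB matches in the Gbp5 and Gbp2 windows are therefore not typical of that list. Of 12 canonical NF-kB genes, 8 hold the kB consensus. A match describes the letters in the window and not binding.

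Interferon-stimulated genes beyond those GTPases were also lower, by a smaller median. Of 62 tested, 52 fell and Ifitm3 alone rose (by 0.63), with a median of -0.66. The summed level was 3822 to 4273 CPM in the IFNAR knockout and 2567 to 3136 CPM in the double knockout. WT libraries reached 16628 CPM and RelBko libraries 16890 CPM. Rsad2, which encodes the antiviral enzyme viperin, was 9.17 to 39.6 CPM against 1.05 to 5.28 CPM (-2.17 ± 0.15). Isg15, a ubiquitin-like modifier, fell by 1.55, Ifit1, an RNA-binding antiviral gene, by 1.62, and Oas3, a sensor of double-stranded RNA, by 2.30. Ly6a, which encodes the surface protein Sca-1, fell from a median of 155 to 23 CPM.

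Of 20 interferon regulatory factor, STAT and SOCS genes, 10 fell and 3 rose. Irf8, a lineage factor of type 1 dendritic cells that interferon gamma also induces, was 359, 515 and 573 CPM after CpG and 300, 291 and 239 CPM after Poly(I:C) in the IFNAR knockout. The double knockout held 104, 160 and 66.3 CPM and 85, 68.3 and 58.9 CPM. The groups did not overlap, and the difference was -2.07 ± 0.20 (limma adjusted p = 0.00042). Irf1 and Stat2 fell by 0.90 and 0.73. Socs2, a cytokine signalling inhibitor, rose by 0.90, from between 185 and 277 CPM to between 383 and 458 CPM.

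Antigen presentation genes were lower for both classes. Of 19 MHC class I and immunoproteasome genes, 17 fell and none rose (median -0.46), and of 14 MHC class II genes 11 fell and Ifi30 rose (median -0.53). Nlrc5, the class I transactivator, was 263 to 324 CPM against 102 to 136 CPM (-1.25 ± 0.05). The class I peptide transporter gene Tap1 fell by 0.70. H2-Q7 and H2-Q6 fell by 1.48 and 1.00, although reads of such near-identical class I genes may be divided between them uncertainly. H2-Eb1, a class II chain, was 1401 to 2162 CPM against 773 to 1263 CPM (-0.80 ± 0.03), and Cd74, the invariant chain, was 7063 to 7915 CPM against 5114 to 6038 CPM (-0.44 ± 0.03).

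**Figure D2:**
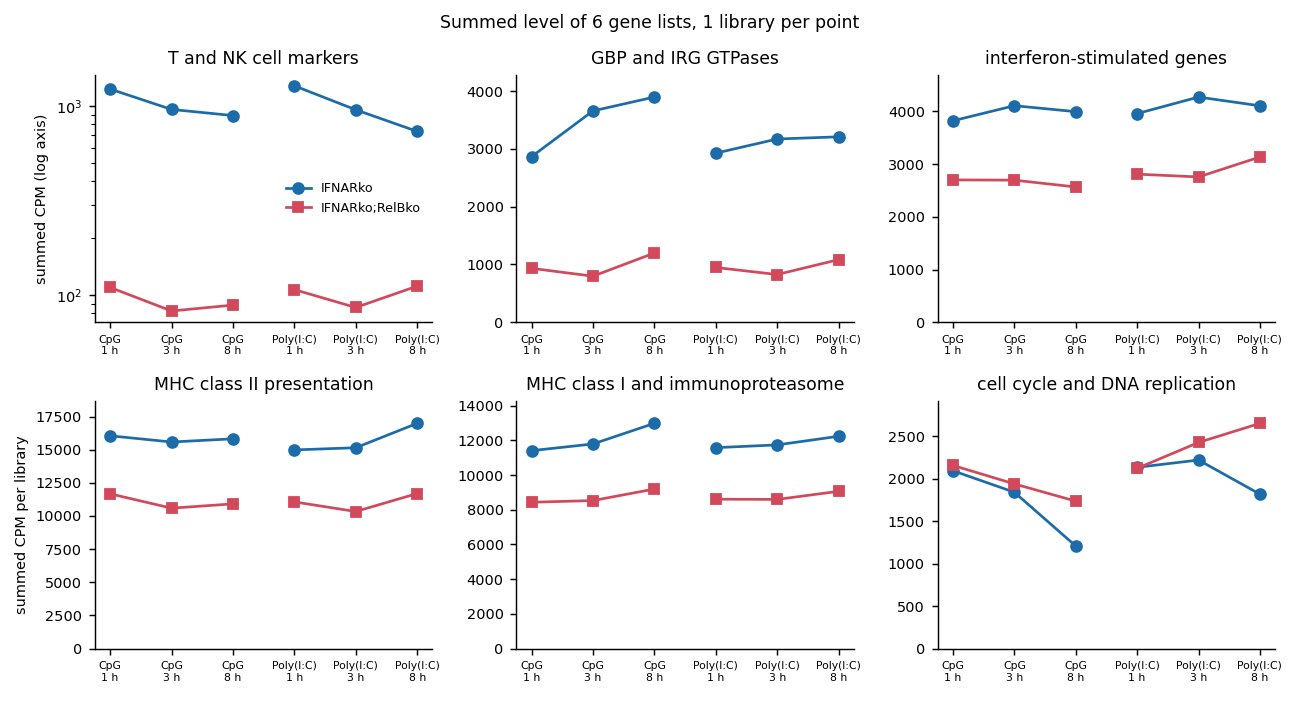
Summed CPM of 6 gene lists (vertical axis, logarithmic for T and NK cell markers) in each library against stimulus and time, with circles for the IFNAR knockout and squares for the double knockout. In 5 lists every double-knockout library was below every IFNAR-knockout library, and for cell cycle genes the genotypes were close at 1 h and apart at 8 h.

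Markers of T and NK cells moved with these groups. Of 16 tested, 14 fell, Klrd1 rose and Cd4 was not called, with a median of -2.54. Their summed level was 732.9 to 1277 CPM in the IFNAR knockout and 82.24 to 111.3 CPM in the double knockout. WT libraries held 127.9 to 254.5 CPM and RelBko libraries 165.1 to 235.9 CPM, and no member was at 0 in all 6 libraries of either genotype. Gzma, which encodes a cytotoxic granule protease, was 378, 307 and 177 CPM after CpG and 389, 298 and 159 CPM after Poly(I:C) in the IFNAR knockout. The double knockout held 13.3, 10.2 and 5.5 CPM and 10.6, 7.87 and 7.99 CPM. The gap was wide in every pair, at -4.76 ± 0.10 (limma adjusted p = 1.3e-10). Gzmb fell by 3.60, Gzmc by 3.70 and Prf1, the gene of perforin, by 3.14.

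The T cell receptor complex gene Cd3g was 28.1 to 35 CPM in the IFNAR knockout and 2.89 to 6.35 CPM in the double knockout, and Cd8a fell by 2.67. Ifng, the gene of interferon gamma itself, was 16.7, 29.2 and 19.9 CPM after CpG and 13, 8.03 and 9.57 CPM after Poly(I:C) in the IFNAR knockout. In the double knockout it was 4.14, 1.59 and 2.1 CPM and 2.76, 1.2 and 1.42 CPM. The Ifng ranges did not overlap (-2.36 ± 0.21; limma adjusted p = 3.3e-06). Tbx21, which encodes the T-bet factor of interferon gamma-producing cells, fell by 2.43. The control libraries, labelled 1 h, differed in the same way, with 1095 CPM of the T and NK list in the IFNAR knockout and 105.2 CPM in the double knockout. What these transcripts contribute to the GBP, interferon-stimulated, MHC and chemokine differences was not tested.

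Markers of other cells also differed. Of 9 tested stromal markers 8 rose, with a summed level of 33.33 to 86.44 CPM in the IFNAR knockout and 93 to 115.9 CPM in the double knockout. The collagen gene Col1a2 was 0 to 0.471 CPM against 12.4 to 19.3 CPM. Granulocyte genes split. Of 13 neutrophil markers 5 rose and 6 fell: S100a9, an abundant neutrophil cytosolic protein, fell by 3.75, while Retnlg, also a granulocyte gene, rose by 4.86 ± 0.13, being 2 to 3.16 CPM in the IFNAR knockout and 78.8 to 147 CPM in the double knockout. Of 10 mast cell, basophil and eosinophil markers 5 rose and 4 fell. The eosinophil granule genes Prg2 and Epx fell by 3.34 and 3.06, and the eotaxin receptor gene Ccr3 rose by 3.74. Of 7 B cell markers 4 fell and Ighm rose, at summed levels of 32.6 to 67.1 CPM and 51 to 61.07 CPM. The neutrophil list summed to 168.9 to 255.3 CPM in the IFNAR knockout and 186.9 to 412.9 CPM in the double knockout, and the mast cell, basophil and eosinophil list to 85.26 to 115.9 CPM and 77.3 to 104.1 CPM.

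**Figure D3:**
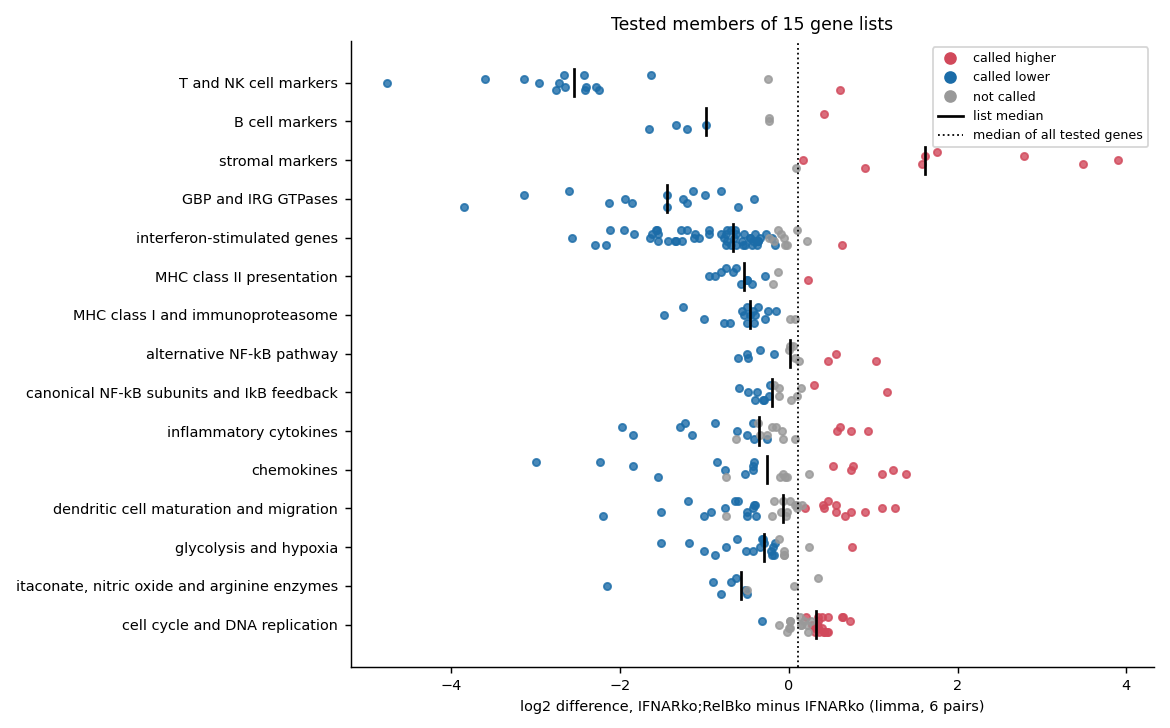
Log2 difference (horizontal axis, double knockout minus IFNAR knockout over 6 pairs) of each tested member of 15 gene lists, coloured by whether limma called it higher, lower or neither. The median bars of T and NK markers (-2.54) and of GBP and IRG genes (-1.44) lie left of the dotted median of all genes (0.11), and that of stromal markers (1.62) lies right of it. The stromal median includes Col1a2, which passed the filter on low values through the double knockout alone.

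Dendritic cell maturation genes did not move one way. Of 37 tested, 11 rose and 14 fell, with a median of -0.07. Of all tested genes 35.9% were called higher and 18.0% lower. The list summed to 16791 to 39508 CPM in the IFNAR knockout and 21338 to 42945 CPM in the double knockout. That sum was higher in the double knockout in each pair. Ccr7, the receptor that guides maturing dendritic cells to lymph nodes, was 1089, 776 and 1627 CPM after CpG and 860, 972 and 1136 CPM after Poly(I:C) in the IFNAR knockout. In the double knockout it was 1446, 1417 and 1862 CPM and 1141, 1597 and 1958 CPM. Ccr7 was higher in every pair although the ranges overlapped (0.56 ± 0.09; limma adjusted p = 0.00094). The co-stimulatory gene Cd86 rose by 0.67. Cd40 rose by 0.56 ± 0.18 (limma adjusted p = 0.04) but missed the threshold in 7 of 17 alternatives, where adjusted p reached 0.095. Among the falls, Il4i1, an amino acid oxidase gene, fell by 1.52 and Pdcd1lg2, which encodes the inhibitory ligand PD-L2, by 1.01. Slco5a1, a transporter gene, was 3.02 to 8.45 CPM against 0.104 to 0.529 CPM.

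Of 14 dendritic cell markers 10 fell and 3 rose. The falls include Cd74, H2-Aa and H2-Ab1, already counted in the MHC class II list. Clec9a, a receptor of type 1 dendritic cells, was 3.98 to 10.9 CPM against 0.262 to 1.86 CPM (-2.04 ± 0.14). Flt3, a growth factor receptor of dendritic cell precursors, rose by 1.54. Of 4 tested plasmacytoid dendritic cell markers, Tcf4, a lineage factor, rose by 1.18, Pacsin1 and Bst2 fell by 1.76 and 0.56, and Ccr9 was not called (median -0.34). That list summed to 123.5 to 157.6 CPM in the IFNAR knockout and 138.3 to 207.2 CPM in the double knockout. Macrophage and monocyte markers were mixed, with 6 of 20 higher and 10 lower, at summed levels of 1727 to 3572 CPM and 2034 to 4153 CPM. The lysozyme gene Lyz2 rose by 0.94, and the complement gene C1qa and the lipid carrier gene Apoe fell by 1.54 and 1.30.

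Metabolic genes of activated myeloid cells were mostly lower. Of 10 itaconate, nitric oxide and arginine enzyme genes 7 fell (median -0.57), and of 23 glycolysis and hypoxia genes 17 fell and Vegfa rose (median -0.29). Nos2, the inducible nitric oxide synthase, was 446, 910 and 1402 CPM after CpG and 425, 530 and 457 CPM after Poly(I:C) in the IFNAR knockout, against 110, 236 and 204 CPM and 106, 140 and 92 CPM. The groups did not overlap (-2.16 ± 0.12; limma adjusted p = 3.5e-06). Arg1, which breaks down arginine, fell by 0.80, and the glycolytic genes Pfkp and Pfkfb3 fell by 1.01 and 1.18. The IL-4-induced gene Retnla fell from a median of 658 to 93.1 CPM. Of 15 genes of the IL-4 list 9 fell and 2 rose (median -0.52).

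Whether the genotype difference depended on time was tested next. The test set the difference at 8 h against that at 1 h over both stimuli, with 1 pair per stimulus at each time. It called 335 of 12179 genes (2.75%) in limma, 185 of them (1.52% of genes tested) with a more positive difference at 8 h. With TMM scaling 134 of 345 were more positive, with median-ratio scaling 137 of 327, and with quantile normalisation 153 of 314. Ccl17, a chemokine of maturing dendritic cells, was 2298, 2326 and 2476 CPM after CpG and 2240, 1861 and 1367 CPM after Poly(I:C) in the IFNAR knockout. The double knockout held 2232, 1751 and 858 CPM and 2094, 1243 and 379 CPM. The genotypes began level and parted under both stimuli, and the difference changed by -1.62 ± 0.10 (limma adjusted p = 1.4e-06). With plain eBayes in place of the trended, robust fit its adjusted p was 0.12, over 15 alternatives it ranged from 9.3e-12 to 0.12, and 0 genes were called. Apol7c, an apolipoprotein L gene, moved the other way, with mean differences of 0.91, 1.39 and 2.21 at 1, 3 and 8 h. Slc40a1, which encodes the iron exporter ferroportin, differed by -0.08 at 1 h and -1.81 at 8 h. The genotype gap in the membrane protease gene Mmp14 narrowed from 2.07 to 0.48, and that in Calcrl, a receptor gene, from -2.19 to -0.22. The call count rests on single pairs, with 18 genes called without the CpG 1 h pair, 29 without the Poly(I:C) 1 h pair and 927 without the Poly(I:C) 8 h pair.

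**Figure D4:**
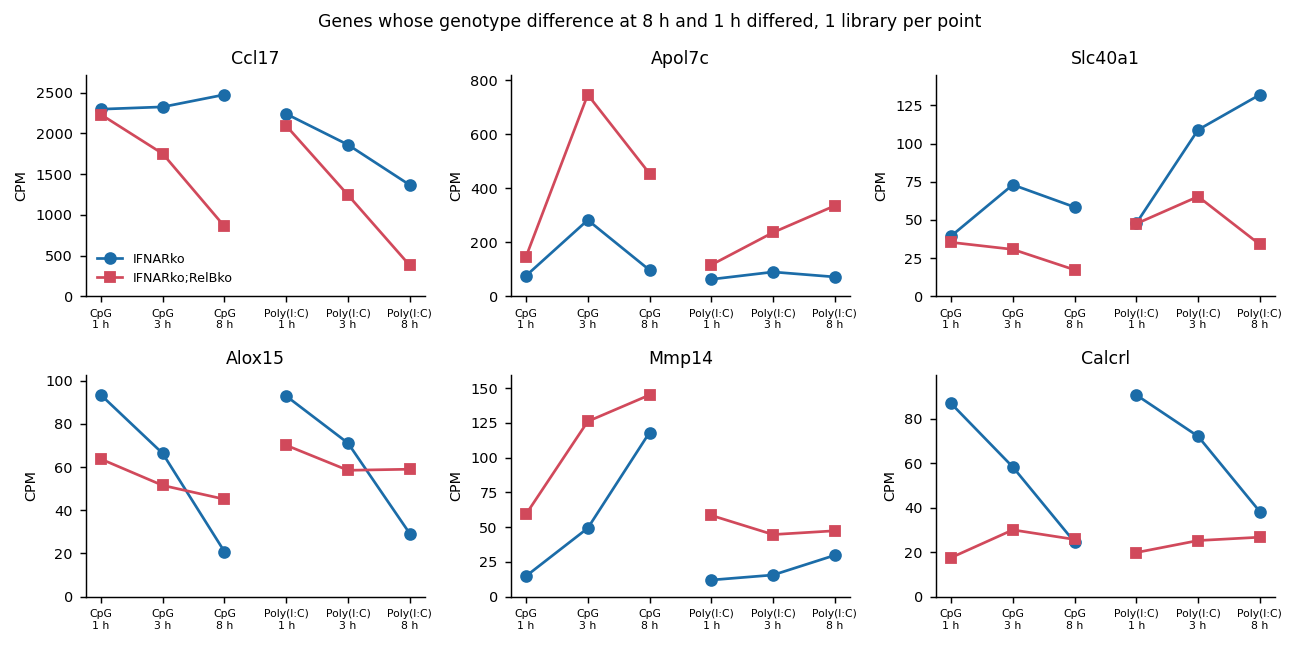
CPM of 6 genes (vertical axis, linear from 0) in each library against stimulus and time, with circles for the IFNAR knockout and squares for the double knockout. The Ccl17 and Slc40a1 lines part with time under both stimuli, the Mmp14 and Calcrl lines approach each other, and the Alox15 lines cross.

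Of 36 tested cell cycle and DNA replication genes, 22 were higher in the double knockout over the 6 pairs and Ccne1 was lower. Of all tested genes 35.9% were called higher and 18.0% lower. Among the 36, 17 had a more positive difference at 8 h than at 1 h and none a more negative one. The share of all tested genes with a more positive difference was 1.52%. None of the 17 was called without the CpG 1 h pair, without the Poly(I:C) 1 h pair or with plain eBayes. With TMM or median-ratio scaling 14 were called higher over the 6 pairs. Their median difference was 0.08 at 1 h, 0.18 at 3 h and 0.60 at 8 h, beside 0.08, 0.09 and 0.13 for all genes. The summed level was 2094, 1841 and 1208 CPM after CpG in the IFNAR knockout and 2157, 1939 and 1736 CPM in the double knockout. After Poly(I:C) it was 2134, 2220 and 1818 CPM against 2122, 2427 and 2652 CPM. The mitotic kinase gene Plk1 was 7.65 to 22.2 CPM against 18.6 to 37.7 CPM (0.73 ± 0.10), and Cdc20, a mitotic exit gene, rose by 0.64.

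Dependence on the stimulus was tested in the same way. After CpG alone 4491 genes (36.9%) were called and after Poly(I:C) alone 4050 (33.3%). The split was 2872 higher (23.6%) and 1619 lower (13.3%) after CpG, and 1741 and 2107 with TMM scaling, 1724 and 2146 with median-ratio scaling and 2072 and 1809 with quantile normalisation. After Poly(I:C) it was 2477 higher (20.3%) and 1573 lower (12.9%), and 1502 and 2023, 1451 and 2083, and 1949 and 1789 under the same 3 settings. The test of the Poly(I:C) difference against the CpG difference called 0 genes in limma, with 352 at an unadjusted p under 0.05 and 0 genes called with voom. In simulated data with the change put in the Poly(I:C) pairs alone, that test called 61 of 100 genes at a log2 change of 1. It called 99 of 100 at a log2 change of 2. The simulation used 1 common setting of read-count spread for every gene, so recovery in the real data may be lower. The 0 calls therefore do not show that the stimulus made no difference. Leaving out the Poly(I:C) 3 h or 8 h pair took the Poly(I:C) count to 2397 or 2541. The stimulated pairs were also tested against the control pair, 1 library against 1, which can miss modest differences. That test called 0 of 12257 genes in limma and with voom, with 161 at an unadjusted p under 0.05, and it takes its spread from the stimulated pairs. Of 272 genes called at least 2-fold higher in the double knockout, 205 were also at least 2-fold higher in the control pair. Of 443 genes called at least 2-fold lower in the double knockout, 369 were also at least 2-fold lower there. Of all tested genes 6.59% were at least 2-fold apart in the control pair.

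The same RelB comparison with the receptor intact, RelBko against WT, shares no library with the 6 pairs. A limma test of the RelB difference without IFNAR against that with IFNAR called 3716 of 12495 genes (29.7%), 1837 more positive (14.7%) and 1879 more negative (15.0%). Of the 6571 genes called in the 6 pairs, 4798 had the same sign in RelBko against WT. The same count over all tested genes was not made, and 4373 of the 6571 were higher. The agreement is therefore not read as a shared RelB effect. The large differences were mostly not shared in size: 32 of the 272 genes at least 2-fold higher and 29 of the 443 at least 2-fold lower reached 2-fold in the same direction in RelBko against WT. A further 8 of the 272 and 11 of the 443 were at least 2-fold apart in the opposite direction there, beside 1.39% of all tested genes at least 2-fold apart either way. WT libraries held 445 to 831.5 CPM of Xist and RelBko libraries 0 to 0.8795 CPM, and the Y-linked sum was 0 to 0.472 CPM and 241.2 to 297.6 CPM. These differences run opposite to those of the receptor-deficient pairs. A sex difference therefore cannot be told apart from a change of the RelB difference with IFNAR state in this test.

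Some genes differed alike in both backgrounds. Map3k14 was higher without RelB whether or not the receptor was present, at 130 to 401 CPM in RelBko cells and 46.5 to 235 CPM in WT, and Slco5a1 was 0 to 0.599 CPM in RelBko cells against 2.36 to 10.7 CPM in WT. For interferon-linked genes the backgrounds differed. The RelB difference of Gbp2 was 0.02 with the receptor, and the change between backgrounds was -1.88 ± 0.07 (limma adjusted p = 1.7e-15). Of the 15 GBP and IRG genes 14 had a more negative difference without the receptor, as did 53 of the interferon-stimulated genes, all 19 class I genes and 14 of the T and NK markers. Gzma and Cd8b1 changed by -4.44 and -4.23, and Cd8b1 was 1.98 higher in RelBko than in WT cells. Flt1, a vascular growth factor receptor gene, changed by -1.79. In the other direction Spint1, a protease inhibitor gene, was 3.35 to 8.64 CPM in the IFNAR knockout and 28.4 to 60.9 CPM in the double knockout and -0.55 in RelBko against WT. Clu, which encodes the chaperone clusterin, differed by 0.49 in the receptor-deficient pairs and by -2.48 with the receptor.

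**Figure D5:**
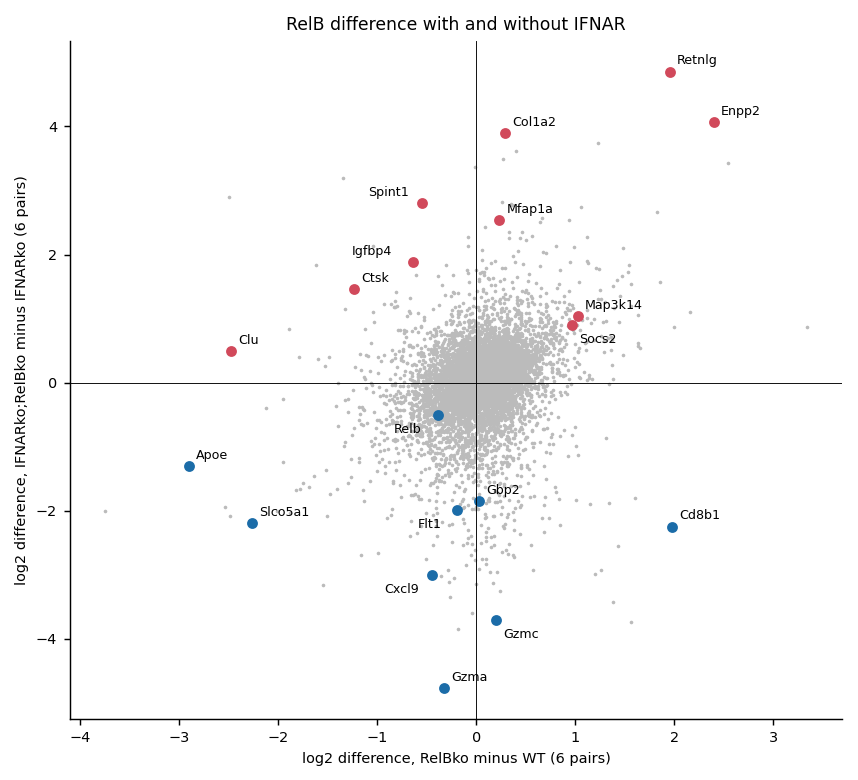
Log2 RelB difference of each gene with the receptor (horizontal axis, RelBko minus WT) against that without it (vertical axis, double knockout minus IFNAR knockout), 6 pairs each, with named genes coloured by their sign without the receptor. Map3k14 and Socs2 lie at similar values on both axes, while Gbp2, Gzmc and Gzma lie near 0 on the horizontal axis and far below 0 on the vertical one.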

How the data were processed

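RNA-seq libraries were made with a stranded mRNA kit, per the labels' protocols. The deposited values are a signal in CPM plus 1, as found from the file values; per the submitters' processing notes, edgeR, cutadapt and the build mm10 were used, and the aligner and counter are not given in the sources used here. Subtracting 1 left whole-read multiples, from which the depths were computed. A CpG sheet of 27178 entries (2161 unnamed, 0.073 to 0.12% of reads, left out) and a Poly(I:C) sheet of 25019 (2 unnamed) were joined over 24995 genes. Symbols were placed with GENCODE and RefSeq, and 97 tested genes had no chromosome.

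Genes with at least 1 CPM in at least 3 libraries of a fit were tested in limma 3.58.1 (R 4.3.3; lmFit and eBayes with trend and robust, two-sided, Benjamini-Hochberg over all genes tested, threshold 0.05) on log2 of the deposited value, with stimulus and time as the block. In the main test a gene under 1 CPM throughout 1 genotype, such as Col1a2 or Slco5a1, could pass the filter only through the other genotype. P-values measure the spread over the pairs of each fit, 6 conditions in the main test, with 1 library per group. The scripts were tested on simulated data. Members and gene lists were chosen with earlier results of these data known. Named genes were genes of the RelB, interferon and cytokine pathways, the 12 largest rises and falls with 1 sign in 6 pairs (mean level 5 CPM or more), the 4 lowest adjusted p per list, and the 5 lowest adjusted p of each sign in the tests between differences. Ifng, Irf8, Irf1, Isg15, Ifit1, Rsad2, Clec9a, Il4i1, Cd86, Cd3g, Cd8a, Tbx21, Ccl3, Ccl4, Ltbr, Chuk, Klrd1, Cd4, Ifitm3, Ifi30, Vegfa, Ccne1, Ighm, Cd40, the named chemokine and cytokine rises and the promoters shown were chosen after their values were seen. Alternatives changed the pseudocount, filter, scaling, variance model, test and pairs used. Some genes that the rule names are not reported here.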

Additional observations from a re-analysis of the deposited data

Results flagged for a closer look

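These results stand out because the genotype difference differed between conditions by a test of that difference in limma. Between 8 h and 1 h, 335 genes were called, and 0 with plain eBayes. The change was 1.31 for Apol7c, 1.51 for Alox15, 0.81 for Bcl2l11 and 1.98 for Calcrl. It was -1.62 for Ccl17, -1.29 for Fam115c, -1.73 for Slc40a1, -1.60 for Mmp14 and -0.71 for Fth1. Between pairs without and with IFNAR, 3716 genes were called. The change was 3.36 for Spint1, 2.52 for Igfbp4, 2.97 for Clu, 2.69 for Ctsk and 2.31 for Mfap1a. It was -4.44 for Gzma, -3.90 for Gzmc, -1.88 for Gbp2, -1.79 for Flt1 and -4.23 for Cd8b1. Sex-linked transcripts differ within the pairs of both IFNAR states, in opposite directions, and their part was not tested.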

How the results depend on the processing

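The count over the 6 pairs lay between 5616 and 6830 over 17 alternatives, and that of the RelB difference between IFNAR states between 3207 and 3793. Both tests with 0 calls gave 0 under every alternative run. Without single pairs the Poly(I:C) count ranged from 2397 to 4724 and the time count from 18 to 927, and plain eBayes gave 0 time calls, with 1622 genes at an unadjusted p under 0.05; the cause was not tested. Cell cycle genes called higher numbered 14 with TMM and with median-ratio scaling, and 16 to 24 without single pairs; those more positive at 8 h than at 1 h numbered 0 with plain eBayes and 0 to 22 without single pairs. Stromal genes called higher numbered 4 with a filter at 5 CPM, where 4 were tested. The genes that reversed over the 6 pairs, Alox15, Bcl2l11, Fth1 and Ccr9, were not called in that comparison. Alox15 was -0.01 with TMM scaling, -0.02 with median-ratio scaling, -0.09 with voom and -0.12 to 0.21 without single pairs (-0.10 without Poly(I:C) 8 h). Bcl2l11 was -0.01 and -0.02 with the same scalings and -0.03 to 0.15 without single pairs (-0.01 without Poly(I:C) 8 h). Fth1 was 0.15 with quantile normalisation and -0.08 to 0.08 without single pairs, and Ccr9 was -0.36 to 0.04 without single pairs. The planned edgeR test was not run, and voom on the recovered reads was the count-based alternative. No paired analysis was possible by replicate number, because every group has 1 library; the main test already pairs libraries by stimulus and time. The shallowest library limits low genes, since 1 read there is 0.306 CPM.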

Other observations

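The symbol Yam1, which the annotations used here do not place on a chromosome, ranged from 1429 to 18693 CPM over the 12 libraries.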
